A study of Mus musculus with 6 samples.

Results

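Genes of the cytosolic and nuclear HSP70, HSP90, HSP40 (J-domain) and small heat shock protein families were followed in RNA-seq libraries of wild-type (WT) mouse embryonic fibroblasts (MEFs). Genes of other compartments that share the family names, J-domain genes and the microsomal Hspa13 among them, were followed as well. Members were the genes whose symbols carry these family names (Hspa, Hspb, Hsph1, Hsp90aa1, Hsp90ab1, Dnaja, Dnajb and Dnajc followed by a number) and that had at least 10 counts in each of the 6 libraries. The endoplasmic reticulum (ER) chaperone genes Hspa5 and Dnajb9, the mitochondrial chaperone genes Hspa9 and Dnaja3, and symbols of pseudogenes were left out. This gave 51 of the 55291 genes listed. Of the 73 matching symbols, 4 were left out by name, 4 were pseudogene symbols and 14 had fewer counts. By family, there were 7 HSP70 genes (Hspa1a, Hspa1b, Hspa2, Hspa8, Hspa12b, Hspa13, Hspa14), 3 HSP110 genes (Hspa4, Hspa4l, Hsph1), 2 cytosolic HSP90 genes, 4 small heat shock protein genes (Hspb1, Hspb6, Hspb8, Hspb11), 3 DNAJA, 8 DNAJB and 24 DNAJC genes.

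The MEFs were all WT, with no altered allele in any group, and were given vehicle, 1 μM MASM7 for 6 h, or 20 μM MFI8 for 6 h. MASM7 is a small molecule that activates the mitofusins MFN1 and MFN2, the proteins of the outer mitochondrial membrane that drive fusion, and MFI8 is a small molecule that inhibits them. Each group had 2 libraries of poly(A) RNA, numbered 1 and 2 in the labels, which the series describes as independent biological replicates. The concentrations and the time are those of the study's text for its RNA-seq, the duration of vehicle is not given in the sources used here, and the labels name no embryo, culture or day, so p-values measure the spread between these libraries only. Library totals lay between 22791792 and 30677751 counts, with the lowest and the highest both in the MFI8 group. Of the fibroblast markers examined, 6 of 7 were at 1 TPM (a level per transcript length, scaled to the same total in each library) or more in every library and Thy1 was below 1 TPM in all, while 4 of 4 epithelial, 3 of 3 endothelial and 3 of 3 muscle markers stayed below 1 TPM. Among the leukocyte markers, Ptprc and Adgre1 were below 1 TPM in all libraries and Cd68, which is not restricted to leukocytes, reached 11.9 TPM.

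HSP70 proteins bind exposed hydrophobic stretches of unfolded clients and release them in a cycle of ATP binding and hydrolysis. J-domain (HSP40) proteins deliver clients and stimulate the hydrolysis, HSP110 proteins exchange the nucleotide, HSP90 proteins receive clients such as kinases and steroid receptors from HSP70 for late folding steps, and small heat shock proteins hold unfolding proteins without using ATP. When unfolded proteins accumulate in the cytosol, heat shock factor HSF1 binds inverted repeats of GAA in the promoters of inducible chaperone genes, while other members (Hspa8, Hsp90ab1) are made constitutively at high level.

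The values below turn on Hspa1a and Hspa1b, the neighbouring genes of the inducible HSP70, so the 250 bases before their start sites are shown here beside those of Hspb1, the inducible small heat shock protein. Capitals mark the letters of the pair GAANNTTC, the smallest inverted repeat of the unit that HSF1 binds, and the sequences are those of RefSeq on GRCm38.p6, written 5′ to 3′ on the strand of the gene.
Hspa1a, chr17:34972157-34972406, minus strand: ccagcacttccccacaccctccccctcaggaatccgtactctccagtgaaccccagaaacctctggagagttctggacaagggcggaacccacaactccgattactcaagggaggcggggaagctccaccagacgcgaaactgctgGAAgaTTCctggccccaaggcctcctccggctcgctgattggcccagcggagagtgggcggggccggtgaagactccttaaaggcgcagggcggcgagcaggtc
Hspa1b, chr17:34959239-34959488, minus strand: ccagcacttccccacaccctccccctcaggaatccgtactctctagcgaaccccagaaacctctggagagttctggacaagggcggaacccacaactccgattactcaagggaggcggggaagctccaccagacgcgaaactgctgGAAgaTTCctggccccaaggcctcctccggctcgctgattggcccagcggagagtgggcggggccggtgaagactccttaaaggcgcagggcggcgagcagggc
Hspb1, chr5:135887669-135887918, plus strand: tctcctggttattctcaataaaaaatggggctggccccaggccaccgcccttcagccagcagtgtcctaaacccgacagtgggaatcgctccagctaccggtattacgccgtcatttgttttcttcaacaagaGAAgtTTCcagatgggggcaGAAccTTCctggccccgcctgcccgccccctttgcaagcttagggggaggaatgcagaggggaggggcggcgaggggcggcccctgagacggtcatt

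In Hspa1a and Hspa1b the pair begins at position −104 from the start site, and these upstream stretches match at 247 of 250 bases. Hspb1 has the pair at −117 and again at −97. When windows of 300 bases around the start sites were searched for GAANNTTC and TTCNNGAA, which are each their own reverse complement and can overlap one another by a shared unit, 12 of the 41 members with a RefSeq promoter held a pair (29.3%), beside 4587 of all 27025 genes in that table (17.0%). The 12 were Hspa1a, Hspa1b, Hsph1, Hspb1, Hspb6, Hspb8, Dnaja1, Dnaja4, Dnajb4, Dnajb6, Dnajc10 and Dnajc27. Dnajb1, the inducible HSP40, was searched and held no pair, and Hsp90aa1 had no RefSeq promoter to search. A match describes letters and is not evidence of a bound site. The longest open reading frames of Hspa1a and Hspa1b are identical at 1918 of 1929 aligned positions, with an unbroken identical run of 638 bases, and how reads fitting both genes were handled is not given in the sources used here, so the division of reads between these genes is uncertain.

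With vehicle, the chaperone mRNA pool of the MEFs was dominated by constitutive genes. Hsp90ab1, the constitutive HSP90, was the highest member at 5467 ± 64.0 TPM (SD, n = 2), and the HSP90 genes together made up 61.6% and 60.6% of the summed TPM of all members in the vehicle libraries. Hsp90aa1, the stress-responsive HSP90, stood at 1152 ± 135 TPM and Hspa8, the constitutive HSP70 also known as HSC70, at 1133 ± 83.1 TPM, levels that did not differ beyond their spread. The HSP70 genes summed to 12.5% and 13.1% of the member TPM, the 24 DNAJC genes to 11.1% and 10.8%, HSP110 to 5.49% and 5.97%, DNAJA to 4.61% and 4.76%, DNAJB to 3.65% and 3.71%, and the small heat shock proteins to 1.02% and 1.09%. The highest J-domain mRNA was Dnaja2, a cytosolic partner of HSC70, at 415 ± 24.3 TPM, followed among J-domain genes by the splicing-associated Dnajc8 at 185 ± 0.652 TPM and the ER-resident Dnajb11 at 130.2 ± 4.97 TPM. Hspa1b stood at 84.3 TPM and Hspa1a at 2.75 TPM, and Hspb1 was near the bottom of the list at 1.95 TPM, below the small heat shock gene Hspb8 at 66.1 TPM.

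**Figure D1:**
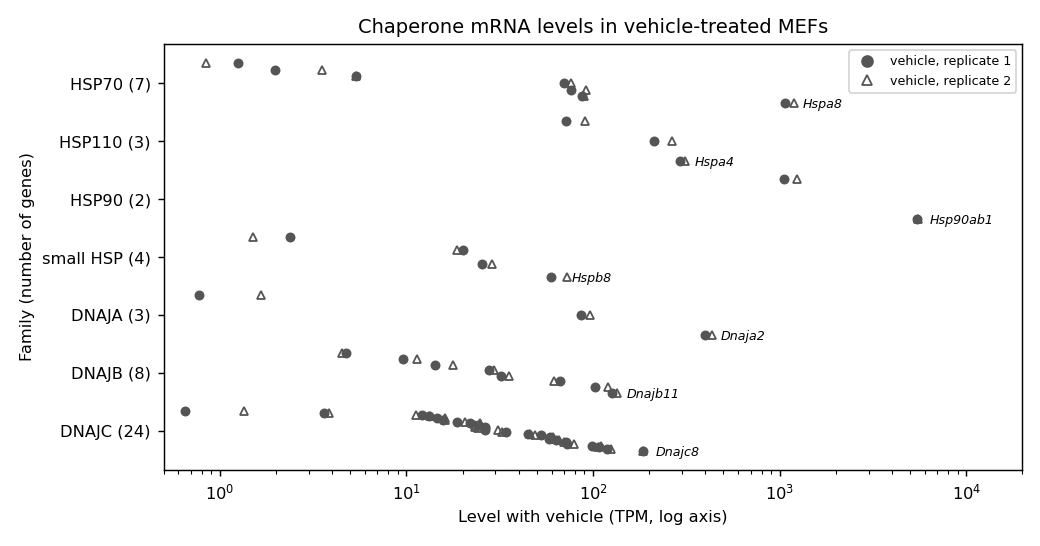
Levels of the 51 chaperone mRNAs in the 2 vehicle libraries, in TPM on a log axis, by family. Filled circles are replicate 1 and open triangles replicate 2, the gene with the highest mean of each family is named, and Hsp90ab1 lies to the right of all other members at 5467 TPM.

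The main question was whether 6 h of activating or inhibiting the mitofusins altered these mRNAs against vehicle. With the libraries fitted by group alone, no member passed an adjusted p of 0.05 in edgeR's quasi-likelihood test in either comparison. The smallest adjusted p among the 51 members was 0.412 for Hspa1a with MFI8 and 0.473 for Dnajc9 with MASM7. Over all 14290 genes tested, 0% were called with either compound. DESeq2's Wald test, run as an alternative, called 49 genes with MFI8 (0.406% of those given an adjusted p) and 2 with MASM7 (0.00747%), and 0 of the 49 and 51 members that it gave an adjusted p. Libraries with the same replicate number deviated together, and with that number as a block edgeR called 3 members with MFI8, all higher (Hspa1a, Hspa1b and Dnajb1), among 720 genes (5.04% of those tested), and 0 members with MASM7 among 554 genes (3.88%). The 3 of 51 members are close to the share of all genes. DESeq2 with the same block called 0 of the 23 and 19 members that it gave an adjusted p, with 0.470 for Hspa1b and 0.413 for Dnajb1 with MFI8, and for Hspa1a it gave none (unadjusted p = 0.0592).

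At an unadjusted edgeR p under 0.05, 1 member was higher with MFI8 (Hspa1a) and 4 were lower (Dnajc24, Dnajc9, Dnajc7 and Dnajb6), where 5.21% of all tested genes were higher and 4.65% lower. With MASM7, 1 member was higher (Dnajc11) and 1 lower (Dnajc9), where the background was 5.32% and 4.88%. In CPM (counts scaled by library total and TMM factor), 6 members lay above both vehicle libraries in both MFI8 libraries and 12 lay below, beside 20.9% and 19.3% of all tested genes. With MASM7, 3 members lay above and 10 below, beside 21.2% and 21.6% of all tested genes. Both shares above vehicle were under the background, and both shares below vehicle were close to it. Against the vehicle library of the same number, 19 members were higher and 20 lower in both MFI8 libraries, beside 32.4% and 31.1% of all tested genes. With MASM7, 4 were higher and 25 lower in both, beside 31.6% and 31.5%. The median log2 fold change of the members was −0.00035 with MFI8 and −0.030 with MASM7, beside 0.0027 and 0.00067 over all tested genes. The sign of the MFI8 median was the opposite in 11 of 18 alternative settings, library size alone among them, and that of the MASM7 median in 1, without vehicle replicate 2.

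Among the HSP70 genes, Hspa1a showed the widest span between libraries. It had 1.67 and 2.94 CPM with vehicle, 1.79 and 2.10 CPM after MASM7, and 2.31 and 15.1 CPM after MFI8, in the order of replicates 1 and 2. A single library, MFI8 replicate 2, was therefore high, and MFI8 replicate 1 lay between the vehicle libraries. In reads, these values rest on 38 and 74 counts with vehicle, 53 and 64 after MASM7, and 53 and 465 after MFI8. The log2 fold change was 1.94 (SE 0.66) for MFI8 against vehicle and −0.25 (SE 0.76) for MASM7 against vehicle. Without MFI8 replicate 2 the MFI8 value was −0.0074, and without MFI8 replicate 1 it was 2.70 with an edgeR adjusted p of 0.000321, so 1 library decided it. With the replicate block it was 1.81 (SE 0.29, edgeR adjusted p = 0.000141), and each MFI8 library lay above the vehicle library of its number. Of its annotated exon bases, 19.0% overlap Gm20481 on the other strand, and the strand setting of the counting is not given in the sources used here. In these bulk libraries, a few cells with much more of an mRNA and many cells with slightly more cannot be told apart.

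Hspa1b, at a higher level, was likewise highest in MFI8 replicate 2. Its values were 60.9 and 72.7 CPM with vehicle, 57.4 and 81.1 CPM after MASM7, and 60.5 and 135 CPM after MFI8. MFI8 replicate 1 lay just below both vehicle libraries and MFI8 replicate 2 well above them. The log2 fold change was 0.55 (SE 0.29) with MFI8 and 0.051 (SE 0.29) with MASM7. It became −0.14 without MFI8 replicate 2, and 1.01 with an edgeR adjusted p of 0.0175 without MFI8 replicate 1. With the replicate block it was 0.49 (SE 0.10, edgeR adjusted p = 0.00412), although MFI8 replicate 1 did not exceed vehicle replicate 1. The MASM7 value turned negative under the offsets for GC content and length. Within the MFI8 group the replicate 2 library exceeded replicate 1 by 6.53 times for Hspa1a and 2.23 times for Hspa1b, beside 1.77 and 1.19 times with vehicle and 1.17 and 1.41 times with MASM7. MFI8 replicate 2 was also the deepest library, and the part of this in the result was not tested.

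The constitutive Hspa8 varied little. It had 1316 and 1442 CPM with vehicle, 1299 and 1426 CPM after MASM7, and 1338 and 1555 CPM after MFI8, and the 3 groups overlapped. Its log2 fold changes were 0.069 (SE 0.078) with MFI8 and −0.017 (SE 0.078) with MASM7, the first of which became −0.043 without MFI8 replicate 2. Hspa2, a member first known from the testis, had 4.03 and 3.97 CPM with vehicle, 3.96 and 4.80 after MASM7, and 4.92 and 4.99 after MFI8. It was the only HSP70 gene with both MFI8 libraries above vehicle, with a log2 fold change of 0.31 (SE 0.17, edgeR adjusted p = 0.573). Hspa13, an atypical microsomal HSP70, had 136 and 147 CPM with vehicle and 135 and 127 with MASM7, a log2 fold change of −0.12 (SE 0.060, edgeR adjusted p = 0.531). Hspa14, the ribosome-associated HSP70, stayed between 98.6 and 102 CPM in all 6 libraries. Hspa12b, a distant relative of the family, ranged only from 0.62 to 1.32 CPM, and replicate 1 was the higher library in every group.

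**Figure D2:**
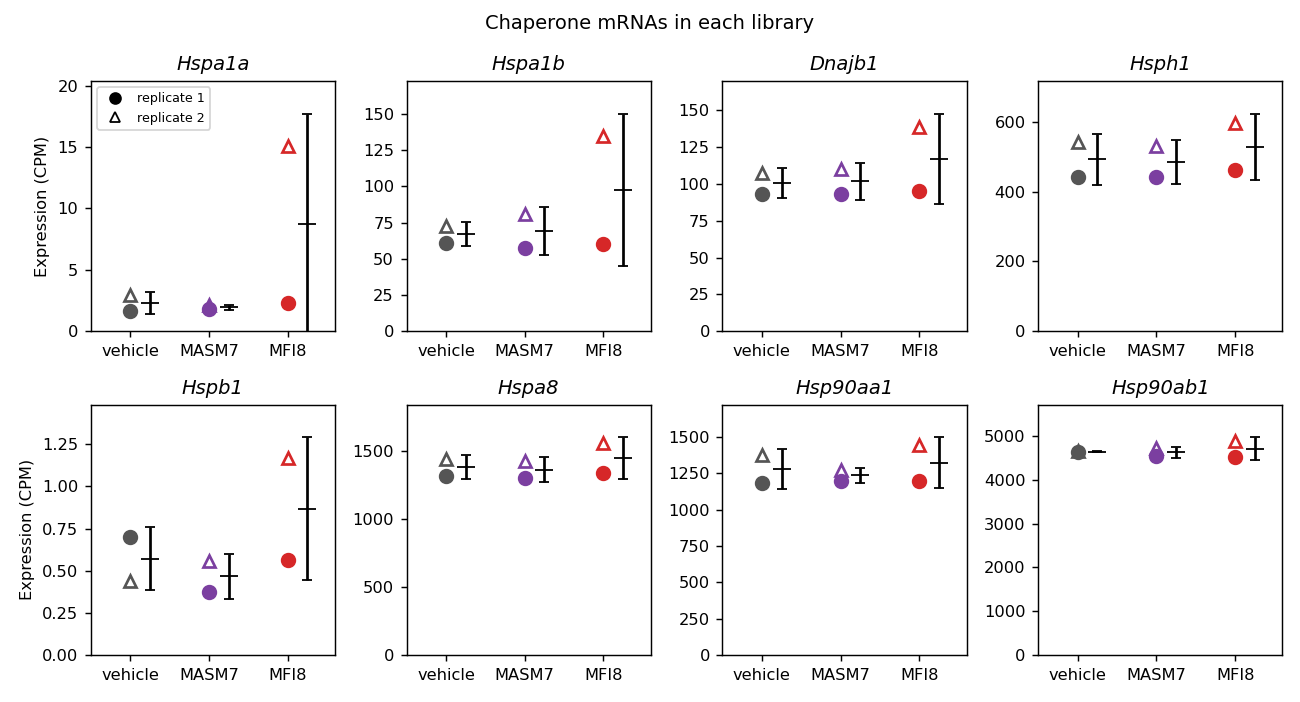
Levels of 8 chaperone mRNAs in each library, in CPM. Filled circles are replicate 1 and open triangles replicate 2, black marks give the mean ± SD of the 2 libraries, and the SD bar of Hspa1a with MFI8 runs below the axis. MFI8 replicate 2 is the highest library in all 8 panels and by the widest margin for Hspa1a, while MFI8 replicate 1 lies near the vehicle libraries.

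The HSP110 proteins are nucleotide exchange factors of HSP70. Hsph1, the inducible HSP110, had 441 and 543 CPM with vehicle, 441 and 530.2 after MASM7, and 461 and 595 after MFI8. The difference between the libraries numbered 1 and 2 was larger than that between the groups, and the log2 fold changes were 0.10 (SE 0.13) with MFI8 and −0.020 (SE 0.13) with MASM7. Hspa4, the constitutive HSP110, had 461 and 482 CPM with vehicle, 456 and 460.5 after MASM7, and 436 and 439 after MFI8. Both libraries of each compound lay below both vehicle libraries, by log2 fold changes of −0.11 (SE 0.048, edgeR adjusted p = 0.513) with MFI8 and −0.041 (SE 0.048, edgeR adjusted p = 0.779) with MASM7, comparisons that share the vehicle libraries. In Hspa4l, a relative of Hspa4, values ran from 224 to 292 CPM and the groups overlapped.

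Neither HSP90 gene separated the groups. Hsp90aa1 had 1182 and 1378 CPM with vehicle, 1199.7 and 1274 after MASM7, and 1200.2 and 1448 after MFI8. Hsp90ab1 had 4629.6 and 4647 CPM with vehicle, 4536 and 4718 after MASM7, and 4520.5 and 4893 after MFI8. For both, the vehicle values lay within the range of the MFI8 values or overlapped it, and the log2 fold changes with MFI8 were 0.049 (SE 0.092) and 0.021 (SE 0.051), each negative without MFI8 replicate 2 (−0.093 and −0.037). With MASM7 they were −0.050 (SE 0.092) and −0.0036 (SE 0.051).

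In the small heat shock protein family all 4 genes had positive log2 fold changes with MFI8. Hspb11, an intraflagellar transport protein that carries the family name, had 15.0 and 16.7 CPM with vehicle, 14.7 and 14.6 after MASM7, and 17.1 and 17.0 after MFI8. It lay above vehicle in both MFI8 libraries and below it in both MASM7 libraries, at log2 fold changes of 0.10 (SE 0.094) and −0.11 (SE 0.094). Hspb6, a muscle-enriched small heat shock protein, had 13.1 and 12.0 CPM with vehicle, 12.3 and 15.0 after MASM7, and 14.1 and 13.4 after MFI8. It also lay above vehicle in both MFI8 libraries. Hspb8, a partner of the co-chaperone BAG3, had 32.9 and 40.0 CPM with vehicle, 34.3 and 39.6 after MASM7, and 37.7 and 42.6 after MFI8, and the groups overlapped. Hspb1, the inducible HSP25, had 0.70 and 0.44 CPM with vehicle, 0.37 and 0.56 after MASM7, and 0.57 and 1.17 after MFI8, from 11 to 36 counts a library. Its log2 fold change with MFI8, 0.66 (SE 0.45, edgeR adjusted p = 0.651), was 0.0041 without MFI8 replicate 2.

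DNAJA proteins are the J-domain partners closest in build to bacterial DnaJ and bind clients themselves. Dnaja2 had 337 and 362 CPM with vehicle, 335 and 340.0 after MASM7, and 324 and 327 after MFI8. Both MFI8 libraries lay below vehicle, at a log2 fold change of −0.10 (SE 0.052, edgeR adjusted p = 0.553). Dnaja1, which also serves the cytosolic HSC70, had 212 and 234 CPM with vehicle, 206 and 221 after MASM7, and 203 and 236 after MFI8, so that the MFI8 libraries spanned the vehicle libraries. Dnaja4 was scarce, at 0.79 and 1.67 CPM with vehicle, 1.39 and 1.45 after MASM7, and 1.52 and 2.24 after MFI8, a log2 fold change with MFI8 of 0.61 (SE 0.35) that ranged from 0.19 without vehicle replicate 1 to 1.27 without vehicle replicate 2. Of its exon bases, 44.1% overlap Wdr61 on the other strand.

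DNAJB proteins include the stress-responsive J-domain partners. Dnajb1, the inducible HSP40, had 93.3 and 108 CPM with vehicle, 93.0 and 111 after MASM7, and 95.3 and 139 after MFI8. MFI8 replicate 2 was the high library, as for Hspa1b, while MFI8 replicate 1 lay between the vehicle values, and the log2 fold change of 0.22 (SE 0.15, edgeR adjusted p = 0.650) became −0.078 without MFI8 replicate 2. Each MFI8 library lay above the vehicle library of its number, and with the replicate block the value was 0.21 (SE 0.060, edgeR adjusted p = 0.0382), which was no longer called when offsets for GC content and length were added. Dnajb2, a partner of HSC70 with ubiquitin-interacting motifs, had 33.6 and 35.3 CPM with vehicle, 34.7 and 40.1 after MASM7, and 37.8 and 40.8 after MFI8. It was the only DNAJB gene above vehicle in both MFI8 libraries, by 0.19 (SE 0.086, edgeR adjusted p = 0.510) on the log2 scale. Dnajb6, a suppressor of polyglutamine aggregation, had 55.4 and 60.5 CPM with vehicle, 56.4 and 54.2 after MASM7, and 52.0 and 52.7 after MFI8. Both MFI8 libraries lay below vehicle, by −0.15 (SE 0.066, edgeR adjusted p = 0.506), and so did those of Dnajb11, an ER co-chaperone of BiP, by −0.087 (SE 0.057). Dnajb14, a J-domain protein of the ER membrane, had 42.9 and 50.3 CPM with vehicle, 39.1 and 43.4 after MASM7, and 48.5 and 54.4 after MFI8. Each compound overlapped vehicle, while the compounds did not overlap each other.

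The 24 DNAJC genes, J-domain proteins with specialised tasks in many compartments, held most of the values below vehicle, with 8 genes below and 2 above in both MFI8 libraries, and 7 below and 3 above in both MASM7 libraries. Over all tested genes, 19.3% lay below and 20.9% above with MFI8, and 21.6% and 21.2% with MASM7. Dnajc9, a chaperone of histones H3 and H4, had 72.7 and 71.3 CPM with vehicle, 64.9 and 62.7 after MASM7, and 65.7 and 65.5 after MFI8. All 4 libraries of treated cells lay below both vehicle libraries, and the replicates of each group lay close together. The log2 fold changes were −0.18 (SE 0.056, edgeR adjusted p = 0.473) with MASM7 and −0.14 (SE 0.057, edgeR adjusted p = 0.470) with MFI8. Both kept their sign in all 17 alternative settings that gave the gene an adjusted p. Dnajc24, which takes part in making diphthamide, had 20.6 and 18.8 CPM with vehicle, 16.9 and 18.2 after MASM7, and 16.8 and 16.3 after MFI8. Its log2 fold change was −0.25 (SE 0.093, edgeR adjusted p = 0.435) with MFI8, and it lay below vehicle with both compounds. Dnajc7, a co-chaperone that binds both HSP70 and HSP90, had 181 and 195 CPM with vehicle, 178 and 185 after MASM7, and 167 and 175 after MFI8, a log2 fold change of −0.13 (SE 0.057, edgeR adjusted p = 0.485) with MFI8. With the replicate block that value had an edgeR adjusted p of 0.0759, and with offsets for GC content and length added to the block it was −0.15 (SE 0.033) with an edgeR adjusted p of 0.0135. The fit with the block and the offsets called 4 of the 51 members and 595 of all 14290 genes tested. Dnajc8 had 135 and 133 CPM with vehicle, 130.5 and 129 after MASM7, and 117 and 128 after MFI8, also below vehicle in both libraries of each compound.

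Grouped by the place of their known work, the 5 nuclear, ribosome-bound or RNA-related J-domain genes (Dnajc2, Dnajc8, Dnajc9, Dnajc17 and Dnajc21) were all negative with MFI8, with a median log2 fold change of −0.090 that stayed negative in all 18 alternative settings (−0.13 to −0.037), and 3 of 5 lay below vehicle in both libraries, beside 19.3% of all tested genes. With MASM7, 4 of 5 were negative and 3 lay below vehicle, beside 21.6%, and the median of −0.045 became positive, at up to 0.0052, under the offsets for GC content and length. For the 10 ER genes the median was 0.014 with MFI8 and −0.028 with MASM7, that of the 3 vesicle and endosome genes −0.00035 and −0.057, and that of the 8 cytosolic client-binding DNAJA and DNAJB genes 0.059 and −0.031, and each of these took the other sign in 1 to 7 alternative settings, apart from the vesicle and endosome genes with MASM7. Among the 6 mitochondrial J-domain genes, the medians were −0.0027 with MFI8, of the other sign in 6 settings, and 0.022 with MASM7, of the other sign in 1. Dnajc11, a protein of the complex that bridges the inner and outer mitochondrial membranes, had 104 and 97.3 CPM with vehicle, 112 and 111 after MASM7, and 103 and 98.5 after MFI8. Both MASM7 libraries lay above vehicle, at a log2 fold change of 0.14 (SE 0.057, edgeR adjusted p = 0.477), whereas the MFI8 libraries lay within the vehicle range. Dnajc10, an ER disulfide reductase, had 169 and 175 CPM with vehicle, 162 and 154 after MASM7 and 158 and 162 after MFI8, below vehicle with both compounds and with a log2 fold change of −0.12 (SE 0.054, edgeR adjusted p = 0.489) with MASM7. This grouping was made with results of these data known and describes the members without a test.

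The other J-domain genes complete the count of libraries outside the vehicle range. Dnajc19, a subunit of the mitochondrial protein import motor, had 18.0 and 18.2 CPM with vehicle, 19.0 and 21.1 after MASM7, and 19.2 and 19.5 after MFI8. Dnajc16 had 24.4 and 24.6 CPM with vehicle, 27.9 and 25.9 after MASM7, and 27.4 and 26.8 after MFI8. These genes lay above vehicle in all 4 libraries of treated cells, at log2 fold changes of 0.099 (SE 0.090) and 0.15 (SE 0.079) with MFI8 and 0.15 (SE 0.089) and 0.14 (SE 0.078) with MASM7, and no edgeR adjusted p among these was under 0.561. Below vehicle with MFI8 lay also Dnajc5, the cysteine string protein of synaptic and secretory vesicles, at 142 and 136 CPM with vehicle and 131 and 129.7 with MFI8. Its edgeR adjusted p was 0.254 with the block and 0.0387 with the block and the offsets, a fit that called 595 of all 14290 genes tested. So did the mitochondrial Dnajc15, at 22.4 and 20.6 CPM with vehicle and 20.1 and 19.3 with MFI8. Dnajc21, a factor of ribosome maturation, lay below vehicle with both compounds. With MASM7 the endosomal Dnajc13 and the ER gene Dnajc3 lay below vehicle, at log2 fold changes of −0.060 (SE 0.054) and −0.070 (SE 0.057). With the offsets for GC content and length, the values of 8 of the 10 members below vehicle with MASM7 shrank by over 1.5 times or took the other sign (Dnajc3, Dnajc8, Dnajc10, Dnajc13, Dnajc21, Hspa4, Hspa13 and Hspb11), among them Hspa13 from −0.12 to −0.010. With MFI8 this held for 3 of the 12 below (Dnaja2, Dnajc8 and Dnajc21) and 2 of the 6 above (Dnajb2 and Dnajc16). The remaining 11 DNAJC genes and Dnajb4, Dnajb5 and Dnajb12 overlapped vehicle in both comparisons. Dnajc28 was the least abundant of them, between 0.65 and 1.35 CPM, and its log2 fold change with MFI8 had an SE of 0.45. Dnajc30 shared 26.2% of its exon bases with Bud23 and Dnajc14 shared 17.0% with Ormdl2, each on the other strand.

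**Figure D3:**
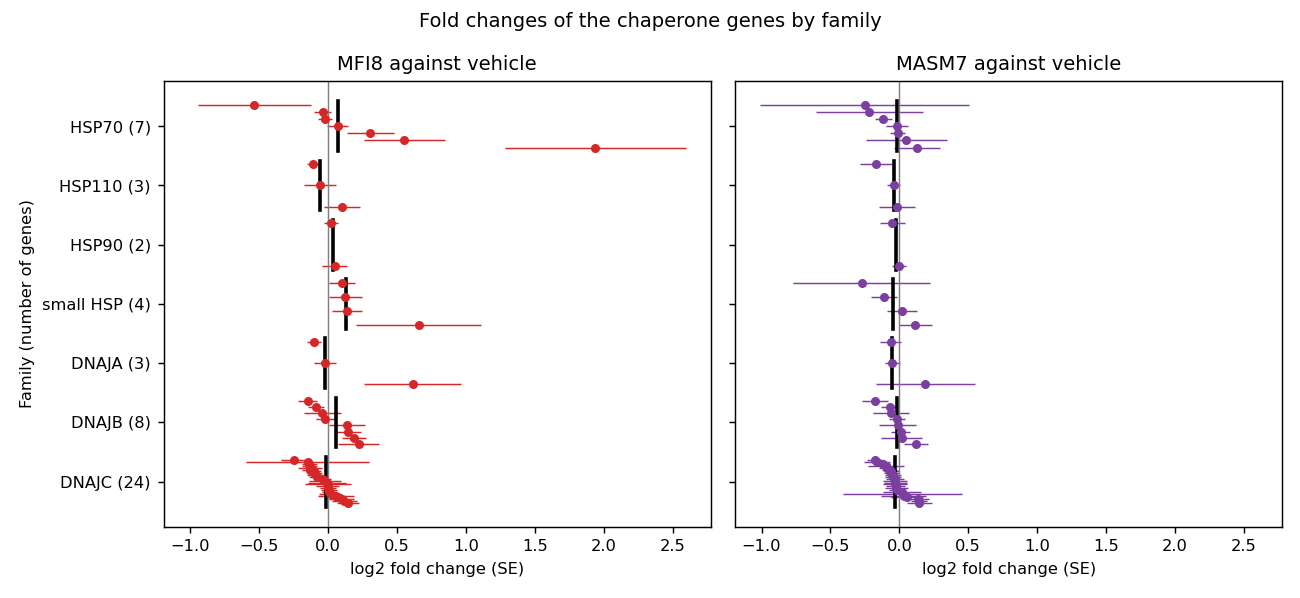
edgeR log2 fold changes (points) with SE (bars) of the 51 chaperone genes against vehicle, by family, for MFI8 (left) and MASM7 (right). Thick black lines are family medians. Most genes lie near 0, with Hspa1a at 1.94 (SE 0.66) with MFI8 the farthest from it.

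Set side by side, the family medians with MFI8 were 0.069 for HSP70, −0.060 for HSP110, 0.035 for HSP90, 0.13 for the small heat shock proteins, −0.023 for DNAJA, 0.061 for DNAJB and −0.015 for DNAJC, and the small heat shock proteins apart, each took the other sign in 1 to 6 of 18 alternative settings. With MASM7 they were −0.017, −0.041, −0.027, −0.048, −0.051, −0.015 and −0.031 in the same order, all below 0, although each except that of HSP110 was positive in 2 or 3 of the alternative settings. To place these against the spread between libraries, the median difference of each family from the vehicle mean was taken in every library. The small heat shock proteins lay at 0.081 and 0.17 in the MFI8 libraries, above the vehicle values of −0.0062 and 0.0062, but at −0.091 and 0.067 in the MASM7 libraries, a gap between replicates as wide as the difference between MFI8 and vehicle. Their MFI8 median was positive in all 18 alternative settings (0.076 to 0.24). The DNAJC genes lay at −0.049 and −0.030 with MFI8 and at −0.051 and −0.038 with MASM7, below the vehicle values of −0.011 and 0.011, although their median turned positive in the limma fits on TPM with MFI8 (up to 0.015) and under the offsets for GC content and length with MASM7 (up to 0.0038). The other 5 families overlapped vehicle in both comparisons. For HSP70 the MFI8 libraries lay at −0.041 and 0.17, and for DNAJB at −0.039 and 0.11, so that the positive medians came from replicate 2 and were negative without it (−0.043 and −0.044). An exact permutation test of a family median over libraries, 2 a group, cannot go below p = 0.333, and no test between families was made because genes are not replicates.

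**Figure D4:**
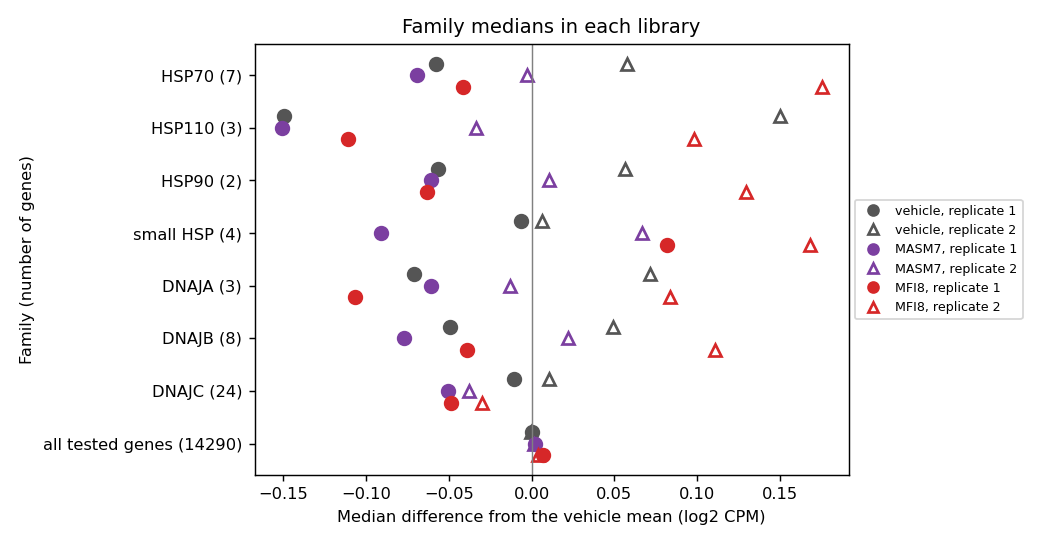
Median difference of each family from the vehicle mean in each library, in log2 CPM, with replicate 1 as filled circles and replicate 2 as open triangles. The small heat shock proteins lie above vehicle in both MFI8 libraries and the DNAJC genes below it in all 4 libraries of treated cells, while the replicates of HSP70, HSP110, HSP90, DNAJA and DNAJB are spread on both sides of 0 in the MFI8 group.

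Among the members, the spread between the libraries of a group was often larger than the spread between groups. For 15 of 51 members with MFI8 and 8 of 51 with MASM7, the log2 fold change against vehicle exceeded the difference between libraries 1 and 2 in both groups compared. The share over all tested genes was not taken for this count, so it does not set the members apart from other genes. The direction of the difference between libraries 1 and 2 was shared. With vehicle 36 members were higher in library 2, with MASM7 32 and with MFI8 37, beside 49.9%, 51.5% and 50.8% of all tested genes. In all 3 groups, 24 of 51 members (47.1%) were higher in library 2, beside 20.5% of all tested genes. By family, these were 3 of 3 HSP110 genes, 2 of 2 HSP90, 3 of 3 DNAJA, 5 of 8 DNAJB, 4 of 7 HSP70, 1 of 4 small heat shock proteins and 6 of 24 DNAJC genes. The share among the DNAJC genes was near that of all tested genes. No such share was taken over genes of like level alone. For each pair of groups, the difference between libraries 1 and 2 correlated more over the 7145 genes at or above the median level (0.51 to 0.62) than over the members (0.39 to 0.55). In the 6 inducible members (Hspa1a, Hspa1b, Hsph1, Dnajb1, Hsp90aa1 and Hspb1), the median log2 difference of library 2 over library 1 was 0.24 with vehicle, 0.26 with MASM7 and 0.75 with MFI8.

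Those 6 inducible members all had positive log2 fold changes with MFI8, with a median of 0.39, yet none had both MFI8 libraries above both vehicle libraries, and without MFI8 replicate 2 the values of 5 of the 6 were negative. Against the vehicle library of the same number, 4 of the 6 (Hspa1a, Hsph1, Dnajb1 and Hsp90aa1) were higher in both MFI8 libraries, as was Hspa8, beside 32.4% of all tested genes. Relative to the vehicle mean their median lay at −0.080 in MFI8 replicate 1 and at 0.72 in MFI8 replicate 2. With MASM7 the median was −0.035, 2 of 6 were positive and none was outside the vehicle range in both libraries.

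When the treated groups were set against each other, the concentrations differed, at 20 μM MFI8 and 1 μM MASM7, so the values describe these treatments and not the compounds at equal dose. Fitted by group alone, no member passed an adjusted p of 0.05 in edgeR (background 0%) or in DESeq2 (0.231% of genes called), and the smallest edgeR adjusted p was 0.544. With the replicate block edgeR called 3 members, all higher with MFI8 (Hspa1a, Hspa1b and Dnajb14), beside 3.07% of all tested genes. DESeq2 with the block called Dnajb14 (adjusted p = 0.0498), among 110 called of the 9131 genes that it gave an adjusted p. At an unadjusted p under 0.05, 3 members were higher with MFI8 than with MASM7 (Dnajb14, Hspa1a and Hspb11) and 1 lower (Dnajc11), beside 4.23% and 2.95% of all tested genes. In CPM 9 members lay above and 9 below without overlap, beside 19.6% and 19.6%. Between libraries of the same number, 21 members were higher with MFI8 in both and 15 lower, beside 29.8% and 31.1%, and the 6 inducible members were among the 21. Hspa1a differed by 2.19 (SE 0.65) on the log2 scale, a value that again rested on MFI8 replicate 2. Dnajb14 differed by 0.32 (SE 0.094), with an edgeR adjusted p of 0.00167 under the block, Hspb11 by 0.22 (SE 0.093) and Dnajc11 by −0.14 (SE 0.057). With offsets for GC content and length added to the block, edgeR also called Dnajc11 (−0.15, adjusted p = 0.0209) and Dnajb1 (0.21, adjusted p = 0.0275). That fit called 5 of the 51 members and 675 of all 14290 genes tested.

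Beyond the members, 68 genes of HSP70 and HSP90 co-chaperones, heat shock factors, chaperonins, prefoldin and other stress-inducible chaperones were followed, of which 67 were tested. With MFI8, 1 was higher and 5 were lower at an unadjusted p under 0.05, beside 5.21% and 4.65% of all tested genes, and 10 lay above and 16 below vehicle without overlap, beside 20.9% and 19.3%. With MASM7, 12 were higher and 1 lower at that p, beside 5.32% and 4.88%, and 20 lay above and 8 below, beside 21.2% and 21.6%. Fitted by group alone, none of the 67 passed an adjusted p of 0.05 with either compound in edgeR. With the replicate block edgeR called 3 with MFI8, of which Unc45a was higher and Sugt1 and Vbp1 lower, and 6 with MASM7, all higher (Serpinh1, Fkbp4, Hyou1, Nudc, Hsf1 and Ruvbl2), beside 5.04% and 3.88% of all tested genes. With offsets for GC content and length added to the block, 0 were called with either compound, and of the 20 above vehicle with MASM7, the values of 16 shrank by over 1.5 times or took the other sign under the offsets. Against the vehicle library of the same number, 20 were higher and 28 lower in both MFI8 libraries, beside 32.4% and 31.1% of all tested genes, and 29 and 16 with MASM7, beside 31.6% and 31.5%. Between the compounds, 8 were higher with MFI8 and 35 lower, beside 29.8% and 31.1%. Among the 6 called with MASM7, Fkbp4, a co-chaperone of steroid receptors, was at 0.16 with the block (edgeR adjusted p = 0.0322) and at 0.072 with the block and offsets, and Ruvbl2, an ATPase of the R2TP complex, was at 0.17 (edgeR adjusted p = 0.0453) and 0.050. Most of the 12 were co-chaperones of HSP90, of which 7 of 23 were higher with MASM7 at an unadjusted p under 0.05, beside 5.32% of all tested genes. Of the 23, 9 lay above vehicle with MASM7 and 1 below, beside 21.2% and 21.6%. Under the offsets, the values of all of these 9 except Cdc37 shrank by over 1.5 times or took the other sign. Among them were Nudc, at 175 and 175 CPM with vehicle and 188 and 203 with MASM7, a log2 fold change of 0.16 (SE 0.055, edgeR adjusted p = 0.473, and 0.0403 with the block) that was 0.057 with the block and offsets, and Unc45a, a myosin chaperone, at 49.9 and 49.0 CPM with vehicle, 52.7 and 60.3 after MASM7 and 56.3 and 60.4 after MFI8. Unc45a was above vehicle with both compounds, by 0.19 (SE 0.077, edgeR adjusted p = 0.477) with MASM7 and 0.24 (SE 0.077, edgeR adjusted p = 0.398, and 0.0214 with the block) with MFI8, values that were 0.067 and 0.15 with the block and offsets.

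Serpinh1, the collagen chaperone HSP47 and a known target of HSF1, had the smallest p of these 67 genes with MASM7. It stood at 861 and 838 CPM with vehicle, 943 and 999.6 after MASM7 and 878 and 909.6 after MFI8, so both compounds lay above vehicle. Its log2 fold changes were 0.19 (SE 0.051, edgeR adjusted p = 0.466, and 0.0155 with the block) with MASM7 and 0.073 (SE 0.051) with MFI8, and 0.092 (edgeR adjusted p = 0.151) and 0.010 with the block and offsets. Hsf1 itself had 136 and 130 CPM with vehicle, 143 and 157 after MASM7 and 141 and 141 after MFI8, a log2 fold change of 0.17 (SE 0.059, edgeR adjusted p = 0.473, and 0.0430 with the block) with MASM7 that was 0.11 with the block and offsets. Hyou1, the HSP110 relative of the ER, was higher with MASM7 by 0.16 (SE 0.055, edgeR adjusted p = 0.0335 with the block) and Ubqln4, a ubiquitin-like shuttle factor, by 0.13 (SE 0.048), both above vehicle in both libraries, and with the block and offsets these were 0.12 and 0.033. On the lower side, all 8 subunits of the cytosolic chaperonin TRiC were negative with MFI8. Below vehicle in both libraries lay 3 of 8 (19.3% of all tested genes), and 8 of 8 lay below the vehicle library of the same number in both (31.1%). Their median log2 fold change of −0.061 stayed negative in all 18 alternative settings (−0.11 to −0.024), in which 5 to 8 subunits were negative. Under the offsets for GC content and length, the MFI8 values of Tcp1, Cct2, Cct4, Cct7 and Cct8 shrank by over 1.5 times, and those of Cct3, Cct5 and Cct6a did not. With MASM7, 5 of 8 were negative and the median was −0.0080, of the other sign in 5 settings. Its subunit Tcp1 had 972 and 1000.5 CPM with vehicle and 910.2 and 924 with MFI8, a log2 fold change of −0.10 that was −0.046 with the offsets. The prefoldin subunit Vbp1 had 147 and 157 CPM with vehicle, 138 and 136 after MASM7 and 132 and 139 after MFI8, below vehicle with both compounds (edgeR adjusted p = 0.0352 for MFI8 with the block). Its log2 fold changes of −0.17 with MFI8 and −0.15 with MASM7 became −0.032 and −0.019 with the block and offsets. Sugt1, Nudcd2 and Ppid, which work with HSP90, lay below vehicle in both MFI8 libraries by −0.21 (SE 0.073, edgeR adjusted p = 0.0435 with the block), −0.14 (SE 0.058) and −0.15 (SE 0.065), and by −0.19 (edgeR adjusted p = 0.0532), −0.075 and −0.089 with the block and offsets. Without vehicle replicate 2 the values of Sugt1 and Ppid were −0.11 and −0.046, and without vehicle replicate 1 they were −0.30 and −0.24.

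Of the genes left out by name, the log2 fold changes with MFI8 and MASM7 were 0.019 and 0.091 for Hspa5 (BiP), −0.046 and −0.036 for Hspa9 (mortalin) and 0.0040 and 0.015 for Dnaja3. Dnajb9, an ER J-domain protein of the unfolded protein response, stood at 10.4 and 9.70 CPM with vehicle, 10.01 and 9.80 after MASM7, and 11.2 and 12.9 after MFI8, a log2 fold change of 0.27 (SE 0.12, edgeR adjusted p = 0.485) with MFI8. Among the 14 genes with fewer counts, Dnajb3, Dnajb7, Dnajb8, Dnajb13, Dnajc5b and Hspb3 had 0 counts in all libraries, and Hspa12a and Hspa1l, a relative of Hspa1a expressed in the testis, reached 17 and 14 counts at most.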

How the data were processed

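Poly(A) RNA-seq counts of 6 MEF libraries (2 per group) were analysed. Per the submitters, Trimmomatic trimmed the reads, STAR aligned these to GRCm38 and featureCounts counted them over exons. The authors deposited the raw counts of each gene. They also deposited normalised counts, a signal equal to the raw counts divided by DESeq2 size factors, and TPM. Annotation release, strand setting and the handling of reads with several matches are not given in the sources used here.

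Raw counts were tested in edgeR 4.0.16 (R 4.3.3; TMM, filterByExpr, quasi-likelihood F test, 1 coefficient per group, all 6 libraries, no block) with Benjamini-Hochberg adjustment over the 14290 genes tested, all 51 members among them. Each SE was taken from the log2 fold change and its F value (|log2 fold change| over √F). The deposited TPM served for levels between genes, and the deposited signal only for checking size factors. Depth was 22791792 to 30677751 counts per library. Gene coordinates and exon overlaps came from GENCODE vM21. Alternatives included DESeq2 1.42.0, limma 3.58.1 on log2(TPM + 1) or log2(TPM + 0.1), other filters and scalings, offsets for GC content and length, a replicate block, and leaving out each library. The fits were tested on simulated data. The labels number the libraries of each group 1 and 2 without naming a shared culture or day. The difference of library 2 minus library 1 correlated across the 14290 genes at 0.19 between vehicle and MASM7, 0.15 between vehicle and MFI8 and 0.17 between the compounds. In the same order, it was 0.51, 0.62 and 0.54 over the 7145 genes at or above the median level, and 0.39, 0.55 and 0.48 over the members. Each is over 0.1, so the numbers were read as pairing the libraries, a reading settled after the blocked calls were known, and blocked values, with and without the offsets, stand beside the calls they change.

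The members, gene lists and tests were chosen with earlier results of these data known, and the grouping by role was made after the files were seen. Members were named in the text if they were among the 3 smallest p of their family, had an unadjusted p under 0.05 without overlap, were highest in their family with vehicle, or were 1 of 8 well-known chaperones, with up to 6 of the 67 further genes per compound. Genes named outside this rule were added after their values were seen, to complete a family or list. Among them were the members Hspa14, Dnajb4, Dnajb5, Dnajb12, Dnajc3, Dnajc5, Dnajc13, Dnajc15, Dnajc16, Dnajc19, Dnajc21 and Dnajc28, and Fkbp4 and Ruvbl2 of the further genes.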

Additional observations from a re-analysis of the deposited data

How the results depend on the processing

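The count of 0 genes called by edgeR (1409, 1458 and 1026 at an unadjusted p under 0.05 for MFI8 against vehicle, MASM7 against vehicle and MFI8 against MASM7) did not change with either other scaling, at least 10 counts in every library, the offsets for GC content and length, or limma on TPM. In the same order, DESeq2's Wald test called 49, 2 and 29 genes and 0 of the 49, 51 and 50 members given an adjusted p. With no filter beyond 1 count in any library, 256, 127 and 168 of 26760 genes were called, with 2 members (Hspa1a and Hspa1b), 0 and 3 (these and Dnajb14). Fits of only the groups compared called 1 gene with MASM7 and 2 between the compounds. The cause of these changes was not tested. Leaving out 1 library called 0 to 26, 0 to 2 and 0 to 24 genes and 0 to 2, 0 and 0 to 2 members. The highest counts came without MFI8 replicate 1 (without MASM7 replicate 2 for MASM7 against vehicle), and Hspa1a and Hspa1b were called without MFI8 replicate 1; a lone library is then assumed to vary like the others. The member median ranged from −0.043 to 0.045, −0.082 to 0.0014 and −0.029 to 0.062.

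edgeR with the replicate block called 720, 554 and 439 genes, with 3 members (Dnajb1, Hspa1a and Hspa1b), 0 and 3 (Dnajb14, Hspa1a and Hspa1b). With the block and the offsets for GC content and length it called 595, 152 and 675 of 14290 genes and 4 (Dnajc5, Dnajc7, Hspa1a and Hspa1b), 0 and 5 members (Dnajb1, Dnajb14, Dnajc11, Hspa1a and Hspa1b). DESeq2 with the block gave an adjusted p to 3744, 2765 and 9131 genes and called 220, 205 and 110 of them. Of the members given an adjusted p it called 0 of 23, 0 of 19 and 1 of 43 (Dnajb14). These fits changed no other call of a member. Of the 67 further genes, edgeR with the block called 3, 6 and 1 (Grpel1), with the offsets added 0, 0 and 5 (Cct3, Cdc37, Grpel1, Hsp90b1 and Ppid), and DESeq2 with the block 0, 3 (Serpinh1, Hyou1 and Fkbp4) and 0, and without a filter edgeR called 1 with MASM7 (Serpinh1).

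Some named log2 fold changes took the other sign in some settings. Under the offsets for GC content and length, alone and with the block, Dnaja1 with MFI8 was at 0.021 and 0.020. With MASM7 the values were 0.038 and 0.037 for Dnaja1, 0.024 and 0.024 for Dnaja2, −0.041 and −0.039 for Dnajb1, 0.010 and 0.011 for Dnajc8, 0.014 and 0.016 for Hsp90aa1, −0.077 and −0.082 for Hspa1b, 0.020 and 0.019 for Hspa8, −0.043 and −0.041 for Hspb8, and 0.011 and 0.012 for Hsph1. In limma on log2(TPM + 0.1) and log2(TPM + 1), Dnaja1 with MFI8 was at 0.00054 and 0.00056 and Dnajb1 with MASM7 at −0.00117 and −0.00116. Without a filter, Dnajb11, Hsp90ab1 and Hspa8 with MASM7 were at 0.0016, 0.016 and 0.0023.

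Leaving out 1 library gave these ranges with MFI8: −0.14 to 0.084 for Dnaja1, −0.23 to 0.11 for Hspa4l, −0.078 to 0.47 for Dnajb1, −0.093 to 0.18 for Hsp90aa1, −0.037 to 0.079 for Hsp90ab1, −0.0074 to 2.70 for Hspa1a, −0.14 to 1.01 for Hspa1b, −0.043 to 0.18 for Hspa8 and −0.094 to 0.28 for Hsph1. With MASM7 they were −0.048 to 0.013 for Dnajb11, −0.032 to 0.025 for Hsp90ab1, −0.086 to 0.051 for Hspa8, −0.16 to 0.14 for Hsph1, −0.11 to 0.14 for Dnajb1, −0.72 to 0.16 for Hspa12b, −0.22 to 0.28 for Hspa1b, −0.017 to 0.26 for Hspa2, −0.034 to 0.25 for Hspb6, −0.11 to 0.17 for Hspb8, −0.24 to 0.84 for Dnaja4, −0.60 to 0.092 for Hspb1, −0.13 to 0.010 for Dnaja1, −0.10 to 0.0014 for Dnaja2, −0.16 to 0.066 for Hsp90aa1 and −0.59 to 0.23 for Hspa1a. Among the larger values of genes named by the rule, leaving out 1 library also moved these by over 1.5 times without a change of sign with MFI8: Dnaja2 (−0.15 to −0.049), Dnaja4 (0.19 to 1.27), Dnajb6 (−0.21 to −0.081), Dnajb14 (0.035 to 0.26), Dnajc7 (−0.18 to −0.079), Dnajc8 (−0.19 to −0.065), Hspb1 (0.0041 to 1.04), Hspb8 (0.0089 to 0.29), Hspb11 (0.035 to 0.18), Ppid (−0.24 to −0.046) and Sugt1 (−0.30 to −0.11). With MASM7 these were Dnajb2 (0.012 to 0.22), Dnajb14 (−0.29 to −0.056), Dnajc11 (0.093 to 0.19), Hsf1 (0.11 to 0.23), Hspa4l (−0.32 to −0.0024), Hspa13 (−0.17 to −0.057) and Hspb11 (−0.19 to −0.037). Smaller values that kept their sign are not listed, and Dnajb11 with MFI8 was at −0.13 without MFI8 replicate 2 and at −0.040 without MFI8 replicate 1. The low depth of Hspa1a and Hspb1 limits both.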
